A study of Mus musculus with 24 samples.

Results

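The NRF2 pathway was examined in cultured mouse oocytes through 9 genes, Nfe2l2, Keap1, Hmox1, Nqo1, Osgin1, Slc7a11, Txnrd1, Me1 and G6pdx. They were taken by name from an RNA-seq table of 16572 gene names, and each of the 9 has 1 row in it. The study followed DNA methylation and transcription in oocytes grown in culture without follicles in 5% or 20% oxygen. RNA-seq was made for class IV, the largest size class, with 2 libraries per condition out of 24 samples in the series, and its RRBS and PBAT libraries were not analysed here. The table gives 1 pooled value per gene and condition, so no difference below has an SD or a test.

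Both groups, IV 5% O2 and IV 20% O2, were pooled oocytes freed with trypsin and collagenase from ovaries of 7 day old mice and grown on gelatine. The strain is labelled C57BL/6 Barb, whereas the methods of the study name a C57 Black6 and SV129 background. The IV 5% O2 oocytes grew for 9 days in 5% oxygen and the IV 20% O2 oocytes for 14 days in 20% oxygen, and the medium was renewed at different intervals. Both groups are labelled with a diameter of 60 to 70 µm, but the methods of the study give a lower size range for the IV 20% O2 oocytes, so the groups may not be matched in size. Oxygen, culture time, medium change and oocyte size therefore cannot be told apart. Neither received a drug.

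NRF2, the protein of Nfe2l2, is a transcription factor that pairs with small Maf proteins on antioxidant response elements in the DNA. KEAP1 binds NRF2 in the cytoplasm and, as the adaptor of a CUL3 ubiquitin ligase, sends it to the proteasome, until oxidants or electrophiles modify cysteines of KEAP1 and NRF2 accumulates. Its activity is thus set largely at the protein level, which RNA-seq does not measure. Its targets serve the supply of glutathione and NADPH, the reduction of thioredoxin and the breakdown of haem. An oocyte builds up glutathione as it grows, and this store protects it and the early embryo from reactive oxygen.

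The letters of the response element core, TGACNNNGC, were searched on both strands of the RefSeq promoter windows of GRCm38.p6, from 250 bases before to 50 bases after each transcript start. Of the 9 genes, 8 matched an entry of that table, with 11 windows, and Hmox1 was not matched. The core was found in 1 window each of Nfe2l2, Me1, Txnrd1 and G6pdx, and in 12.4% of all 32851 windows. These 4 stretches of 30 bases are shown because they carry the only matches in the 11 windows searched. The matched letters are in capitals, and each stretch is read along the strand of the gene. The Nfe2l2 stretch is chr2:75704884-75704913 on the minus strand, the Me1 stretch chr9:86695901-86695930 on the minus strand, the Txnrd1 stretch chr10:82859104-82859133 on the plus strand and the G6pdx stretch chrX:74428918-74428947 on the minus strand.
Nfe2l2: tcagcccaccTGACTCCGCcatgccccgga
Me1: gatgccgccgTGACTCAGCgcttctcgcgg
Txnrd1: ctggatttttGCTTTGTCAttctgacacgg
G6pdx: aggcgggtcaGCTCAGTCAaagcacacgcc
The core reads as written in Nfe2l2 and Me1 and as its reverse complement in Txnrd1 and G6pdx. Counted from the transcript start, the first base of the match lies at position -240 in Nfe2l2, -92 in Txnrd1, -57 in G6pdx and -6 in Me1. The Nfe2l2 stretch lies upstream of the annotated gene, and the other stretches lie within the bounds that GENCODE gives for their genes. The Me1 match also holds TGACTCA, the AP-1 motif. No match in Keap1, Nqo1, Osgin1 and Slc7a11 says only that these letters are not in these windows.

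Values are RPM, the reads of a gene scaled to the depth of its column, and each is given with an exact 95% Clopper-Pearson interval on its reads. The reads carry no molecular identifiers, so copies of 1 molecule cannot be told from separate molecules. The intervals treat reads as independent and may be too narrow. They cover counting error only and say nothing of the spread between cultures. Reads and depths were worked out from the values, which were nearly all whole multiples of 1 step per column, by taking this step as 1 read. This gave 132185252 reads for the IV 5% O2 column and 40875358 for the IV 20% O2 column. Counting error is therefore smaller in IV 5% O2, and 0 reads would allow up to 0.0227 and 0.0734 RPM. Differences are IV 5% O2 minus IV 20% O2 on log2(RPM + 1), a scale that shrinks differences of weakly expressed genes. They were computed for 14704 genes whose mean reached 1 RPM. The interval beside a difference is that of the log2 ratio of the RPM values, without the 1 RPM added. The median gene was 0.26 higher in IV 5% O2, and differences are also given relative to it. In bulk RNA, fewer cells of a type and less RNA per cell cannot be told apart.

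Hmox1 was the only one of the 9 genes at least 2-fold apart, against 27.9% of all genes tested, and it was lower in IV 5% O2. Its product, haem oxygenase 1, splits haem into biliverdin, iron and carbon monoxide. None of the 9 genes was at least 2-fold higher, against 18.7% of all genes tested, and 1 of 9 was at least 2-fold lower, against 9.22% of all genes. Without regard to size, 6 of 9 were higher in IV 5% O2, against 62.6% of all genes tested, and 3 of 9 were lower, against 37.4%. The count of higher genes depended on the scaling, with 3 after median-ratio, 3 after quantile and 5 after reads-on-genes scaling. The median of all genes tested moved as well, from 0.26 to -0.04, 0.06 and 0.10 in that order. The median difference of the 9 genes was 0.19, which is -0.07 against the median gene, and 3 of 9 (Me1, Keap1 and Nqo1) stood above the median gene with the deposited values and with each of 3 other scalings. At 1.5-fold, Me1 joined Hmox1 with the deposited values, but it was below 1.5-fold with each of the other scalings (0.42 to 0.55). With 5 RPM added in place of 1 RPM none of the 9 genes was 2-fold apart.

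**Figure D1:**
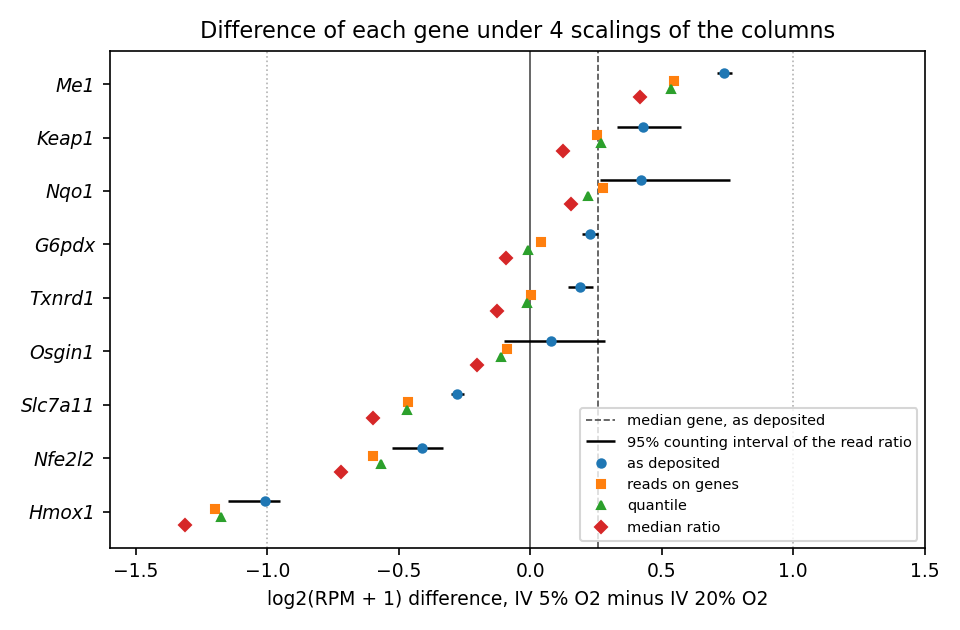
Differences on log2(RPM + 1), IV 5% O2 minus IV 20% O2, of the 9 genes as deposited (circles, with the 95% counting interval of the read ratio as a bar) and with the columns scaled by reads on genes (squares), quantiles (triangles) or median ratio (diamonds). The dashed line is the median gene of the deposited values at 0.26, and dotted lines mark 2-fold. The median gene was 0.10 with reads on genes, 0.06 with quantiles and -0.04 with median ratio, which is not drawn. Hmox1 lay at -1.01 and Me1 at 0.74 as deposited, and Txnrd1, G6pdx and Osgin1 lay on either side of 0 depending on the scaling.

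Nfe2l2, the gene of NRF2 itself, had 21.8 RPM in IV 5% O2 (interval 21.0 to 22.6, 2884 reads) and 29.4 RPM in IV 20% O2 (27.7 to 31.1, 1201 reads). The gene (ENSMUSG00000015839.6) lies on chromosome 2 of GRCm38 from 75675513 to 75704641 on the minus strand, and its transcript with the longest coding sequence has 5 exons. It was lower in IV 5% O2, with intervals that did not overlap. The difference was -0.41 (interval -0.53 to -0.33), which is -0.67 against the median gene, and it ran from -0.72 to -0.57 with the other scalings. Of all genes tested, 21.5% had a lower difference.

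Keap1, the gene of the NRF2 inhibitor, went the other way. It had 23.0 RPM in IV 5% O2 (22.2 to 23.8, 3041 reads) and 16.8 RPM in IV 20% O2 (15.6 to 18.1, 688 reads). The gene (ENSMUSG00000003308.15; chromosome 9, 21229730 to 21239361, minus strand) shares 510 exonic bases with Gm16754 on the other strand, which had 3.37 and 2.54 RPM. The difference of Keap1 was 0.43 (interval 0.33 to 0.57), which is 0.17 against the median gene, and stayed above 0 at 0.12 to 0.27 with the other scalings.

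The ratio of Keap1 to Nfe2l2, both per kb of exon, is not changed by a single factor applied to a column, as in the median-ratio and reads-on-genes scalings. It was 0.85 in IV 5% O2 and 0.46 in IV 20% O2, so that the inhibitor transcript was 1.84 times as high relative to the factor transcript in IV 5% O2 (counting interval 1.65 to 2.05). The same ratio for Bach1, whose product is a haem-sensitive repressor that competes with NRF2 for its elements, was 2.93 and 1.03, a change of 2.84 times (2.61 to 3.08). These ratios, and those of other pairs below, were formed after the values had been seen and have no replicate check.

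Hmox1 had 16.2 RPM in IV 5% O2 (15.5 to 16.9, 2144 reads) and 33.6 RPM in IV 20% O2 (31.9 to 35.5, 1375 reads). The gene (ENSMUSG00000005413.8) lies on chromosome 8 from 75093621 to 75100589 on the plus strand. The IV 20% O2 value was 2.07 times the IV 5% O2 value. The difference was -1.01 (interval -1.15 to -0.95, which includes less than 2-fold), which is -1.27 against the median gene, and it was between -1.31 and -1.18 with the other scalings. Only 9.07% of all genes tested had a lower difference.

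Nqo1, the quinone reductase that is often used as a readout of NRF2, did not follow Hmox1. It had 5.77 RPM in IV 5% O2 (5.37 to 6.20, 763 reads) and 4.06 RPM in IV 20% O2 (3.47 to 4.73, 166 reads), the lowest read number of the 9 genes. The gene (ENSMUSG00000003849.8) lies on chromosome 8 from 107388225 to 107403206 on the minus strand. The difference was 0.42 (interval 0.26 to 0.76), which is 0.16 against the median gene, and 0.16 to 0.27 with the other scalings. Per kb of exon, Hmox1 was 7.35 times as high as Nqo1 in IV 20% O2 and 2.49 times in IV 5% O2, which is a change of 2.95 times in their ratio.

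Osgin1, which encodes an oxidative stress induced growth inhibitor, was at nearly the same level in both columns. It had 7.55 RPM in IV 5% O2 (7.09 to 8.03, 998 reads) and 7.09 RPM in IV 20% O2 (6.30 to 7.96, 290 reads). The gene (ENSMUSG00000074063.10) lies on chromosome 8 from 119434124 to 119446256 on the plus strand. Its difference of 0.08 had an interval from -0.10 to 0.28 and turned to between -0.20 and -0.09 with the other scalings, so a difference was not detectable at this depth.

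Slc7a11 encodes the light chain of the exchanger that brings cystine, the source of cysteine for glutathione, into the cell. It had 351 RPM in IV 5% O2 (348 to 355, 46452 reads) and 426 RPM in IV 20% O2 (420 to 433, 17422 reads). The gene (ENSMUSG00000027737.10) lies on chromosome 3 from 49892526 to 50443614 on the minus strand. Its difference was -0.28 (interval -0.30 to -0.25), which is -0.54 against the median gene, and -0.60 to -0.47 with the other scalings. Slc3a2, the heavy chain that the exchanger shares with other carriers, had 252 and 168 RPM, a difference of 0.58 that was 0.26 to 0.40 with the other scalings. Per kb of exon the ratio of heavy to light chain was 2.83 in IV 5% O2 and 1.55 in IV 20% O2, a change of 1.82 times (1.76 to 1.88).

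Txnrd1, the cytosolic thioredoxin reductase, differed little. It had 136 RPM in IV 5% O2 (134 to 138, 18023 reads) and 119 RPM in IV 20% O2 (116 to 123, 4883 reads), and lies on chromosome 10 from 82833951 to 82897712 on the plus strand (ENSMUSG00000020250.10). Its difference of 0.19 (interval 0.14 to 0.24), which is -0.07 against the median gene, turned to -0.13 under median-ratio scaling and to -0.01 under quantile normalization.

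Me1 and G6pdx encode malic enzyme 1 and glucose-6-phosphate dehydrogenase, which supply the NADPH that glutathione and thioredoxin reductases consume. Me1 had 461 RPM in IV 5% O2 (457 to 464, 60903 reads) and 276 RPM in IV 20% O2 (271 to 282, 11299 reads), the largest positive difference of the 9 genes at 0.74 (interval 0.71 to 0.77), which is 0.48 against the median gene. With the other scalings it was 0.42 to 0.55. The gene (ENSMUSG00000032418.15) lies on chromosome 9 from 86581371 to 86695953 on the minus strand and shares 30 exonic bases with A330041J22Rik on the other strand. Its value is uncertain, since many windows of its exons occur more than once in the genome, 30.3% at a length of 50 bases and 20.7% at 100 bases. Among them were 77 windows found on chromosome 13 between 62812983 and 62815465 at Gm48795 and Gm7049, and 43 on chromosome 1 between 65095154 and 65095726 at Gm7329.

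G6pdx had 325 RPM in IV 5% O2 (322 to 328, 42903 reads) and 277 RPM in IV 20% O2 (272 to 282, 11328 reads). The gene (ENSMUSG00000031400.10) lies on chromosome X from 74409483 to 74429194 on the minus strand. It shares 418 exonic bases with Ikbkg on the other strand, which had 20.7 and 31.1 RPM. Of its 50-base windows 6.4% are repeated, 16 of them at G6pd2 on chromosome 5, but none of its 100-base windows, and 100 bases is the length of a read. Its difference of 0.23 (interval 0.20 to 0.26) was -0.03 relative to the median gene, and it turned to -0.09 under median-ratio scaling and to -0.01 under quantile normalization. The ratio of Me1 to G6pdx per kb of exon was 1.14 in IV 5% O2 and 0.80 in IV 20% O2.

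**Figure D2:**
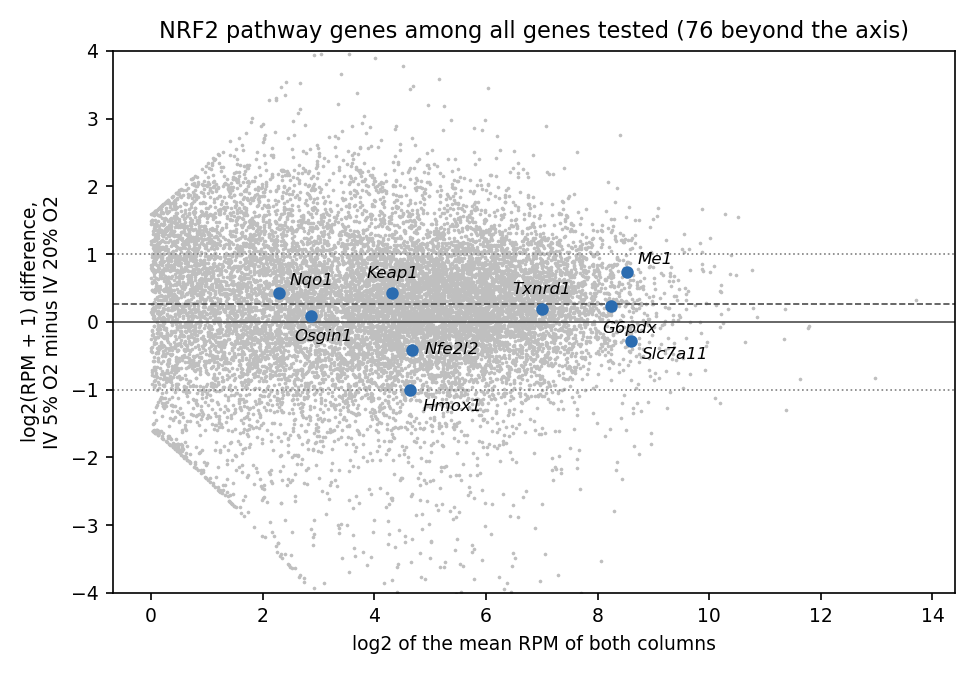
Difference on log2(RPM + 1), IV 5% O2 minus IV 20% O2, against the log2 of the mean RPM of both columns for all genes tested (grey points, 76 of them beyond the axis limit of 4) with the 9 genes in blue. Dotted lines mark 2-fold and the dashed line the median gene at 0.26; the 9 genes lie within the cloud, with Hmox1 alone at the lower 2-fold line.

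Levels can be compared between genes only per length, here as RPM per kb of exon. In IV 5% O2 the order was Me1 (120), G6pdx (105), Slc7a11 (25.2), Txnrd1 (19.2), Hmox1 (9.26), Nfe2l2 (5.75), Keap1 (4.90), Nqo1 (3.72) and Osgin1 (2.82), and no counting interval overlapped that of the next gene. In IV 20% O2 it was G6pdx (90.0), Me1 (71.8), Slc7a11 (30.6), Hmox1 (19.2), Txnrd1 (16.9), Nfe2l2 (7.74), Keap1 (3.59), Osgin1 (2.65) and Nqo1 (2.62), where the intervals of Osgin1 and Nqo1 overlapped. G6pdx and Me1 thus led in both columns, and Hmox1 and Txnrd1 changed places. Divided by the length of the transcript with the longest coding sequence instead, Txnrd1 (33.0) stood above Hmox1 (21.4) in IV 20% O2 too, so this change of places rests on the gene model. With these lengths the intervals of Slc7a11 and Txnrd1, and those of Osgin1 and Nqo1, overlapped in IV 5% O2. Among 14390 genes tested that have an exonic length, G6pdx was above 98.3% in IV 5% O2 and 98.2% in IV 20% O2, Hmox1 above 66.7% and 84.7%, and Nfe2l2 above 54.7% and 65.1%.

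**Figure D3:**
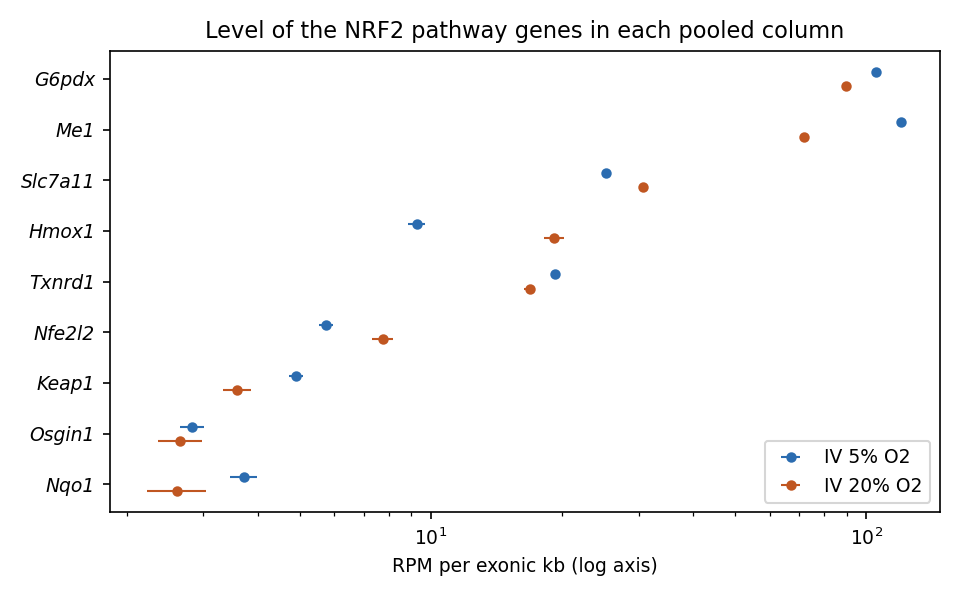
RPM per kb of exon, on a log axis, of the 9 genes in IV 5% O2 (blue) and IV 20% O2 (orange), 1 pooled value each, with 95% counting intervals as bars where they are wider than the point. G6pdx and Me1 had the highest levels, Osgin1 and Nqo1 the lowest, and the widest gap between the columns was that of Hmox1, at 9.26 and 19.2.

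Around these 9 genes, 8 lists of other genes of the pathway were described. Together 53 of 64 listed genes have a row and 51 were tested, of which 10 (19.6%) were at least 2-fold higher and 5 (9.80%) at least 2-fold lower in IV 5% O2, beside 18.7% and 9.22% of all genes. Their median difference was 0.34, and 29 of 51 stood above the median gene. The split of 10 higher and 5 lower depended on the scaling and was 7 and 10 after median-ratio, 7 and 7 after quantile and 9 and 8 after reads-on-genes scaling. The split of all genes tested moved too. It was 1700 higher and 2031 lower of 14634 after median-ratio and 1764 and 1866 of 14705 after quantile scaling. After reads-on-genes scaling it was 2427 and 1869 of 15332. As counts on the deposited values, these lists were close to the background, and 4 of the 8 held genes past 2-fold in both directions. Of the list genes named below, Gss (1102 bases), Txnip (606), Ftl1 (355), Prdx2 (350) and Syvn1 (91) share exonic bases with genes on the other strand. Ftl1 also shares 109 exonic bases with Gm22133 on the same strand.

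Among the DNA partners of NRF2 and the factors related or opposed to it, 1 of 7 genes was at least 2-fold higher, none was lower, and the median was 0.69, but 0.37 to 0.50 with the other scalings and 0.42 with 5 RPM added. That gene was Bach1, with 104 RPM in IV 5% O2 against 49.4 in IV 20% O2, a difference of 1.06, and 8.39% of its 50-base windows are repeated. With each of the other scalings Bach1 was below 2-fold, at 0.74 to 0.88. Nfe2l1, which encodes the related factor NRF1, had the highest level per kb of the list and a difference of 0.69 (171 and 106 RPM), which was 0.37 to 0.50 with the other scalings. Among 11 genes that act on the turnover of NRF2, none was 2-fold higher, 1 was lower and the median of 0.25 turned to -0.06 with median-ratio scaling. The lower gene was Syvn1, the ubiquitin ligase of the endoplasmic reticulum also called HRD1, with 22.7 and 74.4 RPM, a difference of -1.67. Cand1, which exchanges the substrate adaptors of cullin ligases, led the list in level (362 and 295 RPM), and its difference of 0.29 became -0.02 with median-ratio scaling.

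The glutathione list held differences of both signs, with 2 of 6 genes at least 2-fold higher, 1 lower and a median of 0.72 (0.40 to 0.53 with the other scalings). Ggt1, the surface enzyme that starts the breakdown of extracellular glutathione, had 12.5 and 2.37 RPM, a difference of 2.00. Gss, which completes glutathione synthesis, had 9.31 and 2.13 RPM, a difference of 1.72. Gsr, the reductase that recycles oxidised glutathione, was lower in IV 5% O2 at 1.94 against 5.68 RPM, a difference of -1.18. With 5 RPM added in place of 1 RPM these differences shrank to 1.25, 1.01 and -0.62, the last below 2-fold. The subunits of glutamate-cysteine ligase, the enzyme of the first and limiting step, moved apart. The catalytic subunit Gclc had 48.8 and 26.6 RPM and the modifier subunit Gclm 33.4 and 55.9 RPM. Per kb of exon their ratio was 2.44 in IV 5% O2 and 0.79 in IV 20% O2, a change of 3.07 times (2.82 to 3.33). This ratio is uncertain, because 5.23% of the 50-base windows of Gclm are repeated and 244 of its exonic bases are shared with Gm6061 on the same strand and 296 with Gm17494 on the other.

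In the thioredoxin list, 3 of 4 genes have a row and 1 was at least 2-fold higher. Txnip, whose product binds and inhibits thioredoxin, had 1424 and 447 RPM, a difference of 1.67, while the median of the list was -0.37 (-0.69 to -0.56 with the other scalings). All 4 genes of the NADPH list lay above the median gene, the lowest by 0.015, with a median of 0.72 (0.41 to 0.54 with the other scalings), and 1 of them was at least 2-fold higher. Idh1, the cytosolic NADP-dependent isocitrate dehydrogenase, had 62.9 and 16.7 RPM, a difference of 1.85, and Taldo1, the transaldolase of the pentose phosphate pathway, had 96.3 and 59.4 RPM, a difference of 0.69 that was 0.37 to 0.50 with the other scalings.

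The detoxification list has 13 of 21 genes with a row. Of 11 tested, 3 were at least 2-fold higher and 1 lower, with a median of 0.38 (0.06 to 0.30 with the other scalings). The higher genes were Htatip2 (10.3 and 2.91 RPM, a difference of 1.54), the carbonyl reductase Cbr3 (9.72 and 3.06 RPM, 1.40) and the aldo-keto reductase Akr1b8 (6.62 and 2.79 RPM, 1.01). Akr1b8 was below 2-fold with each of the other scalings (0.75 to 0.89), and with 5 RPM added all of them were (0.96, 0.87 and 0.58). Akr1b3, the aldose reductase, had 378 and 291 RPM, and 10.4% of its 50-base windows are repeated. Its difference of 0.38 was 0.06 to 0.19 with the other scalings. Per kb of exon it led the list in IV 5% O2 (45.1 RPM per kb), while the glutathione transferase Gsta4 (35.6) stood just above it (34.7) in IV 20% O2. Gstp1, a glutathione transferase, had 11.7 and 38.9 RPM, a difference of -1.65 that is uncertain because 45.9% of its 50-base windows are repeated. Pir and Gsta1, which were below the mean of 1 RPM and are named after their values were seen, had nearly all of their reads in 1 column each. Pir, the gene of pirin, had 241 reads in IV 5% O2 and 1 read in IV 20% O2, a log2 ratio of 6.22 with a counting interval from 3.73 to 11.5. Gsta1 had 0 and 14 reads, and 89.2% of its 50-base windows are repeated.

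Beyond Hmox1, the haem and iron list was split, with 1 of 6 genes at least 2-fold higher and 1 lower. Its median was -0.01, but -0.32 to -0.17 with the other scalings. Blvrb, one of the biliverdin reductases, had 2.50 and 0.56 RPM, from 330 and 23 reads, a difference of 1.16. It fell below 2-fold with median-ratio scaling (0.99), quantile normalization (0.77) and 5 RPM added (0.43), and was 1.97 with 0.1 RPM added. The other reductase, Blvra, which acts next after Hmox1 on the usual biliverdin isomer, had 20.9 and 24.6 RPM, and the ratio of Hmox1 to Blvra per kb of exon was 1.09 in IV 5% O2 and 1.91 in IV 20% O2. Ftl1, the ferritin light chain, had 56.5 and 142 RPM, a difference of -1.32 that is uncertain because 49.6% of its 50-base and 27.8% of its 100-base windows are repeated. Of the exporters of conjugates, 3 of 5 have a row. Abcc3 was higher in IV 5% O2 (33.7 and 12.6 RPM, a difference of 1.35) and Abcc4 was lower (55.8 and 123 RPM, -1.13). The median of this list was -0.77 (-1.08 to -0.93 with the other scalings).

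A list of 18 other antioxidant enzymes with a row, which are not chiefly known as NRF2 targets, had 1 gene at least 2-fold higher and 1 lower, or 5.56% each, beside 18.7% and 9.22% of all genes. They were Gpx1, a glutathione peroxidase (49.0 and 20.2 RPM, a difference of 1.24), and Prdx4, the peroxiredoxin of the endoplasmic reticulum (0.51 and 4.40 RPM, -1.84). Gpx1 was below 2-fold with median-ratio scaling (0.93), and Prdx4 with 5 RPM added (-0.77), whereas 0.1 RPM added gave -2.87. Prdx2 had the highest level per kb (364 and 299 RPM), with a difference of 0.29 that became -0.03 with median-ratio scaling. The median of the list, 0.08, was below 0 with each of the other scalings and 0.43 when only genes reaching a mean of 5 RPM were kept.

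**Figure D4:**
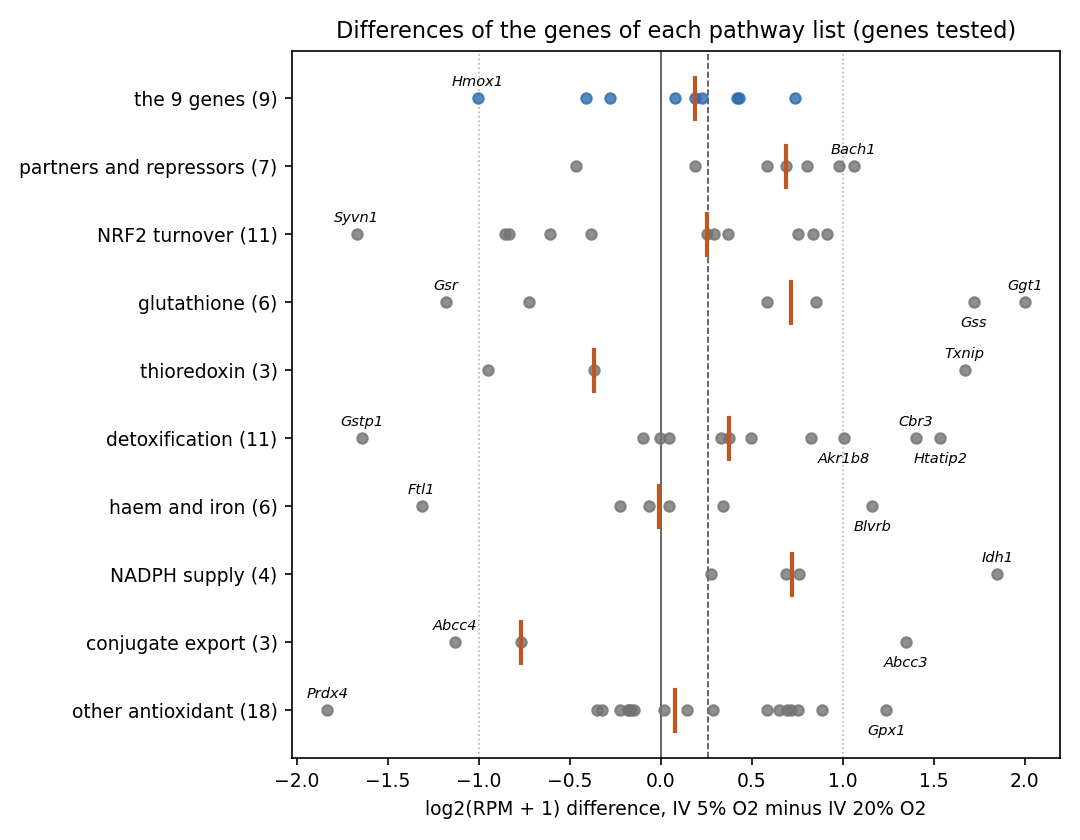
Difference on log2(RPM + 1), IV 5% O2 minus IV 20% O2, of each gene tested in the 9 genes (blue) and in each list (grey), with the number tested in brackets and the median of each list as an orange bar. The dashed line is the median gene at 0.26 and dotted lines mark 2-fold; genes past 2-fold are named, Hmox1 alone among the 9, and they lie on both sides in the glutathione, detoxification, haem and iron, export and other antioxidant lists.

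Oocyte markers were abundant in both columns, as the labels say, with all 12 above 1 RPM and Gdf9 (2346 RPM in IV 5% O2) and Zp2 (in IV 20% O2) the highest. Their summed level was 9852 RPM in IV 5% O2 against 13690 in IV 20% O2, with 8 of 12 lower in IV 5% O2, and Zp2 alone had 1537 against 3807 RPM. The markers of each other ovarian cell type summed to less than the oocyte markers, but not equally in the columns. Of all genes tested, 62.6% were higher in IV 5% O2 and 37.4% were lower. The markers were not compared under the other scalings. Granulosa markers summed to 42.9 and 29.8 RPM over 7 of 12 genes (6 higher in IV 5% O2), with Nr5a2 the highest, Fshr at 0 reads in IV 5% O2 and Inha at 0 in IV 20% O2. Theca and stroma markers summed to 56.7 and 20.8 RPM over 13 of 18 genes (11 higher in IV 5% O2), led by Cyp11a1 in IV 5% O2 (16.4 RPM) and by Ptch1 in IV 20% O2, with Col1a2, Dcn and Vim at 0 in IV 20% O2. Macrophage markers summed to 31.7 and 24.8 RPM over 6 of 12 genes (5 higher), led by Csf1r (9.28 and 15.0 RPM), with Lyz2 at 0 in IV 20% O2. Endothelial markers summed to 117 and 284 RPM over 4 of 6 genes (3 higher), a sum made mostly by Vwf in IV 20% O2 (55.5 and 248 RPM), with Kdr at 0 in IV 20% O2. Of 6 erythroid markers 1 has a row, Alas2, with 1.32 and 1.57 RPM. The part of other cells in the differences of the 9 genes and of the listed genes was not tested.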

How the data were processed

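RNA-seq of 2 libraries per condition was read from 1 table of the whole series. Per the study's methods, total RNA of pooled oocytes was depleted of ribosomal RNA and sequenced as strand-specific paired-end libraries; the authors aligned the reads to mm10 (GRCm38) and merged them across exons in SeqMonk with an oocyte-specific annotation. The submitters' processing notes list TopHat2 2.0.9, Trim Galore 0.2.8 and 0.3.5 and Bismark 0.14.0. The authors deposited log2 values, 1 pooled column per condition; how the libraries were combined, and whether reads were counted by strand, is not given in the sources used here. Of its value columns, 1 is named for in vivo class IV oocytes, matched none of the samples and was left out. The 2 cultures were therefore compared only with each other and not with oocytes grown in vivo.

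The values are named as RPKM, and the methods of the study state a correction for feature length, but the linear values were whole multiples of 1 step (within 0.1 read for 99.98% of the values in each column), so they were taken as RPM without correction for length (82.9% and 72.8% of the reads lay on genes). Rows without reads are listed at 0.9 of 1 read and were set to 0. Of 16572 names, 18 had more than 1 row, and the row with the highest mean was used. Differences were taken on log2(RPM + 1) over genes whose mean reached 1 RPM, and genes at least 2-fold apart were counted. With no value per library, no test was possible. GENCODE vM21 gave identifiers, strand and exonic length (16198 names matched; 16041 rows have its coordinates), and windows of 50 and 100 bases, taken every 10 bases of exon, were sought in 22 chromosome sequences. Promoter sequences are RefSeq's for GRCm38.p6.

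The 9 genes and all lists were chosen with earlier results of these data known, so their counts support nothing on their own. Beyond the 9 genes, the rule named list genes at least 2-fold apart, up to 20, and the gene with the highest level per kb of each list. Of the markers it named the highest and those without reads. Ratios of pairs, Gclc, Gclm, Blvra, Gsta4, Pir and Gsta1 were added after the values were seen. Alternatives were pseudocounts of 0.1 and 5 RPM, no filter and a mean of 5 RPM, median-ratio, quantile and reads-on-genes scaling, reads summed over rows, 1.5-fold, and levels per exonic kb; added later were leaving out genes with at least 5% repeated 50-base windows and the length of the transcript with the longest coding sequence. The scripts were tested on simulated data. Intervals were computed with scipy 1.17.1, tables with pandas 2.3.3 and numpy 2.4.6, window searches with numba 0.67.0 and plots with matplotlib 3.10.9, under Python 3.11.15.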

Additional observations from a re-analysis of the deposited data

How the results depend on the processing

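No paired analysis was possible because each condition is 1 pooled column, and for the same reason no library could be left out and no replicate block could be run. The 3 other scalings moved the median of all genes from 0.26 to -0.04 (median ratio), 0.06 (quantile) and 0.10 (reads on genes), and the share of higher among genes 2-fold apart from 67.0% to 45.6%, 48.6% and 56.5%. With median-ratio scaling, these differences turned below 0: Txnrd1 (-0.13), G6pdx (-0.0915), Osgin1 (-0.20), Cand1 (-0.0246), Prdx2 (-0.0337), and the medians of the 9 genes (-0.13), of NRF2 turnover (-0.0612) and of other antioxidant enzymes (-0.22). Quantile normalization turned Txnrd1 (-0.0111), G6pdx (-0.0082), Osgin1 (-0.11) and the medians of the 9 genes (-0.0111) and of other antioxidant enzymes (-0.0741), and scaling to reads on genes turned Osgin1 (-0.089) and the latter median (-0.10). Median-ratio and reads-on-genes scaling move all genes of a column by 1 factor; for quantile normalization the cause was not tested. The median of the 9 genes, 0.19 as deposited, was 0.0025 with reads on genes and 0.0789 without Me1 and G6pdx. Genes at least 2-fold higher (2753) numbered 5096 at 1.5-fold, 1691 from 5 RPM, 1202 with a pseudocount of 5, 1700 after median-ratio and 1764 after quantile scaling; those lower (1356) numbered 2468 at 1.5-fold, 706 with a pseudocount of 5, and 2031, 1866 and 1869 after median-ratio, quantile and reads-on-genes scaling. Of the 9 genes, 2 were past 1.5-fold and 0 were past 2-fold with a pseudocount of 5 (1 as deposited). Of the list genes, the 10 higher became 20 at 1.5-fold, 6 with a pseudocount of 5, 7 after median-ratio, 7 after quantile and 9 after reads-on-genes scaling, and the 5 lower became 11 at 1.5-fold, 4 with a pseudocount of 5, 10 after median-ratio, 7 after quantile and 8 after reads-on-genes scaling, and 3 without genes with repeated windows. The summed level of the 9 genes, 1347 RPM in IV 5% O2 against 1190 in IV 20% O2, was 1206 and 1330 with median-ratio scaling, 1625 and 1635 with reads on genes, 296 and 245 per exonic kb, and 371 and 312 per kb of the transcript with the longest coding sequence. Of the remaining values of single genes and lists under these alternatives, 141 moved by less than the counting interval and 110 by more, where list medians were held to the median interval of the 9 genes. Among list medians, that of other antioxidant enzymes moved most, to 0.434 from 5 RPM; with median-ratio scaling, detoxification went from 0.38 to 0.06, haem and iron from -0.01 to -0.32, glutathione from 0.72 to 0.40, NADPH supply from 0.72 to 0.41, and partners and repressors from 0.69 to 0.37. Of the 9 genes, depth limits Nqo1 and Osgin1 most, with 166 and 290 reads in IV 20% O2; of the named list genes, Pir, Gsta1, Blvrb, Gss, Ggt1, Akr1b8, Htatip2 and Cbr3 had fewer still, from 1 (Pir) to 125 (Cbr3), and Prdx4 had 68 reads in IV 5% O2.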
